A study of Homo sapiens with 20 samples.

Results

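The response to interferon gamma (IFNγ) without ZBTB48 was described in the 10 of 20 RNA-seq libraries made from ZBTB48 KO clones of U2OS, an osteosarcoma cell line. The libraries were chosen by their labels: clones KOC3, KOC5, KOD2, KOE2 and KOF4, each sequenced untreated and after 250 U/ml IFNγ for 24 h, so that 5 treated libraries stood against 5 untreated ones. All carry the same label for genotype, ZBTB48 KO. The other 10 libraries came from U2OS WT clones under the same 2 conditions and were used only to set values beside those of the KO clones. Each KO clone was sequenced once per condition, so the replicate is the clone, clonal differences in expression are part of the replicate error, and a clone has no error of its own. Every library was made from poly(A) RNA of a line grown in culture.

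IFNγ is a cytokine of activated T cells and NK cells. It binds the receptor chains IFNGR1 and IFNGR2, the kinases JAK1 and JAK2 become active, and signalling to the nucleus starts transcription at GAS elements in DNA, among others of the transcription factor IRF1. IRF1, and complexes that hold STAT2 and IRF9, act on a further element, the ISRE, which many interferon-stimulated genes (ISGs) carry. The program is known for raising antigen presentation on MHC class I and, through the coactivator CIITA, on MHC class II, and for making cells hostile to viruses and intracellular microbes. ZBTB48 is a zinc finger protein that binds telomeric repeats and activates transcription at promoters.

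Levels are in CPM, a gene's counts relative to the TMM-normalized total of its library, in the order KOC3, KOC5, KOD2, KOE2 and KOF4. Changes are log2 fold changes of treated over untreated libraries with their standard error (SE). Genes counted as called where edgeR's quasi-likelihood test gave a Benjamini-Hochberg adjusted p under 0.01 and the change was more than 2-fold. Total counts ran from 48059205 to 60079726 in the untreated and from 53328902 to 71396426 in the treated libraries labelled KO.

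ZBTB48 itself was read first, as a check of the labels. It had 1.29, 1.94, 11.3, 3.12 and 4.06 CPM in the untreated and 1.69, 1.78, 15.8, 3.84 and 5.27 CPM in the treated libraries labelled KO. The library labelled KOD2 thus stood apart in both conditions, above the untreated WT range of 8.02 to 9.44 CPM, so the libraries are called by their label here. ZBTB48 did not change with IFNγ beyond the spread between clones (log2 fold change 0.38, SE 0.71, edgeR adjusted p = 0.806, exact permutation p = 0.7063), and without the treated library labelled KOD2 the value was -0.47. MTFP1 is a mitochondrial fission gene that ZBTB48 is known to activate. It was at 0.223 to 0.938 CPM in the untreated and 0.234 to 0.901 CPM in the treated libraries labelled KO, KOD2 included. In the WT clones MTFP1 was at 27.19 to 53.04 CPM untreated and 32.79 to 47.67 CPM treated. Counts over the whole gene read neither a frameshift nor the protein. Of 10 mesenchymal markers of such a line 9 were tested, and vimentin (VIM) was at 1272 to 1737 CPM untreated and 1479 to 1809 CPM treated. Of 19 leukocyte markers, 7 passed the filter on low counts and 0 of them were called by edgeR or DESeq2, with 1 under an unadjusted p of 0.05. CD3E was at 0 in all 10 libraries. The summed level of the list was 92.5 to 276 CPM in the untreated and 63.5 to 234 CPM in the treated libraries, most of it NCAM1.

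The pairing of treated and untreated libraries was examined before any paired value was read. Over 15118 genes, a library's deviation from its group was compared with that of each library of the other condition. The libraries that share a label correlated at Pearson's r of 0.774 for KOC3, 0.84 for KOC5 and 0.688 for KOD2. For KOE2 and KOF4 the same r was 0.018 and 0.092, whereas KOE2 against the treated library labelled KOF4 gave 0.76, and KOF4 against the treated library labelled KOE2 gave 0.839. Genes on in a single untreated clone showed the same split. IGFBP4, a secreted binder of insulin-like growth factors, had 0.0965, 0.101, 0.0822, 0.0337 and 98.3 CPM untreated and 0.0638, 0.0438, 0.302, 143 and 0.0922 CPM treated, so it was high in KOF4 and in the treated library labelled KOE2. Genes were taken as marks of a clone when they exceeded 2 CPM in 1 untreated library and stayed under 0.5 CPM in the other 4. The 15 marks of KOC3, 12 of KOC5 and 4 of KOD2 were highest in the treated library of the same label. The 4 marks of KOE2 were highest in the treated library labelled KOF4 and the 12 marks of KOF4 in that labelled KOE2. The comparison of groups does not use the pairing, no pairs were crossed, and the cause was not tested.

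After IFNγ, 329 of 19385 tested genes were called higher (1.7%) and 50 called lower (0.258%). The indoleamine dioxygenase IDO1, the chemokines CXCL9, CXCL10 and CXCL11, GBP5 and the apoptosis-associated XAF1 rose from levels at or near 0. Also called higher were 12 of 15 tested genes of peptide supply to MHC class I, 6 of 12 of its chains and trafficking genes, 7 of 17 interferon-responsive transcription factors and 7 of 22 stress-response genes. The falls were fewer and smaller and were led by CD180, the heat-shock protein genes HSPA1A and HSPA1B, and the immediate-early gene FOS. Of the genes called higher, 188 rose more than 4-fold, 125 more than 8-fold and 28 more than 100-fold, with a median log2 fold change of 2.22. Of those called lower, 8 fell more than 4-fold and 2 more than 8-fold, with a median log2 fold change of -1.305. Over all genes tested the median was -0.032. All 329 and all 50 called genes had treated and untreated libraries that did not overlap, where over all tested genes 6.07% had every treated library above and 3.48% every treated library below the untreated ones. The genes called higher took 1.001% to 1.147% of all counts in the untreated and 4.344% to 5.596% in the treated libraries. Those called lower took 0.37% to 0.457% and 0.101% to 0.154%.

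The counts depended on the spread between clones. Without KOC3, KOC5, KOD2, KOE2 or KOF4, 160, 403, 147, 123 and 137 genes were called higher and 7, 87, 13, 8 and 5 lower. With the clone labels as a replicate block, which KOE2 and KOF4 do not bear out, 526 genes were called higher and 195 lower. With the block over KOC3, KOC5 and KOD2 alone there were 239 and 67. DESeq2 called 614 higher and 211 lower. Untreated KOC5 stood apart for many induced genes: it was alone lowest, at under 0.5 of the next lowest library, in 61 of the 329 genes called higher (18.5%), against 1311 of all 19385 tested (6.76%). For the other 4 clones that share lay between 0.608% and 2.13%. Lists of genes are therefore given with their count of called members and with its range when 1 clone is left out. Clones were left out by label, so for KOE2 and KOF4 the libraries left out together may not come from the same clone.

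The receptor, JAK-STAT and SOCS genes of the pathway were called in 4 of 20 tested members (3 to 4 with 1 clone left out, list median 0.28). STAT2, a partner of IRF9, stood at 72.9, 65.3, 68.2, 78.4 and 77.3 CPM untreated and at 264, 296, 243, 312 and 293 CPM treated, a log2 fold change of 1.96 (SE 0.11, edgeR adjusted p = 1.51e-06). The clones lay close together in both conditions. The kinase JAK2 rose by 1.71 on the log2 scale. SOCS1, the inhibitor of JAK kinases that IFNγ is known to induce, went from 9.27, 9.25, 9.31, 12.6 and 6.83 CPM to 27.4, 43.1, 26.4, 63.7 and 42.1 CPM (log2 fold change 2.10, edgeR adjusted p = 0.000788). JAK1 did not change beyond the spread (-0.14, edgeR adjusted p = 0.49). SOCS3 lay lower in every treated library, at 20.5 to 43.4 against 52.1 to 105 CPM, and missed the cut-off (log2 fold change -1.18, edgeR adjusted p = 0.0148).

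Of 17 interferon-responsive transcription factors tested, 7 were called, also with any clone left out (list median 1.54). BATF2, a partner of IRF1 in macrophages, rose most, from 0.347, 0.283, 1.51, 0.8599 and 0.297 CPM to 212, 126, 310.0, 205 and 229 CPM. IRF1 stood at 15.3, 9.73, 27.4, 20.4 and 21.5 CPM untreated and at 462, 294, 691, 624 and 424 CPM treated, a log2 fold change of 4.72 (SE 0.33, edgeR adjusted p = 1.16e-05). KOC5 was the lowest library in both conditions and KOD2 the highest, and the groups lay far apart. NLRC5, the coactivator of MHC class I genes, rose by 3.77, IRF8 by 3.09, SP110 by 3.01, IRF9 by 2.27 and NMI by 2.22 on the log2 scale. IRF3, which acts after nucleic acid sensing, did not pass (0.40, edgeR adjusted p = 0.103).

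Promoters of the called genes were searched for the letters of the elements named above, a search chosen after the gene values had been seen. RefSeq GRCh38.p14 windows of 250 bases before the start were matched for 14232 of the 19385 tested genes. ISRE-like letters, taken as GAAA, any 2 bases and GAAA again on either strand, stood in 2.4% of all these windows, in 42 of 227 windows of genes called higher (18.5%) and in 23 of 75 of those that rose more than 8-fold (30.7%). Among genes that rose 2-fold to 4-fold the share was 7.55%, and among the 42 genes called lower it was 4.76%. The GAS-like letters TTCNNNGAA stood in 5.7% of all windows, in 9.25% of those of genes called higher and in 16.0% of those that rose more than 8-fold. Both patterns are short, and a match is a description of letters, not a site. The stretches below are shown because they hold such letters in genes that the results turn on, with the matched bases in capitals, 5′ to 3′ on the strand of the gene.
IRF1, GAS-like, chr5:132490849-132490937, minus strand: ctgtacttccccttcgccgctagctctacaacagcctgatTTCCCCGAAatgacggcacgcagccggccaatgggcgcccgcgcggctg
GBP1, ISRE-like, chr1:89065286-89065375, minus strand: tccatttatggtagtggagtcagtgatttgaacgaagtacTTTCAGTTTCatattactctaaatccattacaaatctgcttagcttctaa
TAP1, ISRE-like in 2 overlapping matches, chr6:32853783-32853878, minus strand: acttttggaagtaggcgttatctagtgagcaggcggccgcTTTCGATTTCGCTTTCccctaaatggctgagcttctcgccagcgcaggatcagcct
CXCL10, ISRE-like, chr4:76023669-76023747, minus strand: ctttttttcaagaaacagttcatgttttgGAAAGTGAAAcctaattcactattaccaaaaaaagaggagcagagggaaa
In GBP1 and TAP1 the capitals read as the reverse complement of the letters searched. The matches start 124 bases before the annotated start in IRF1, 127 in GBP1 and 221 in CXCL10, and the nearer of those in TAP1 starts 128 bases before it.

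The guanylate-binding proteins, GTPases that attack vacuoles of intracellular microbes, were called in 6 of 6 tested members (5 to 6 with 1 clone left out), with a list median of 9.75. GBP1 had 1.35, 0.283, 1.12, 0.236 and 1.602 CPM untreated and 663, 1200, 753, 964 and 767 CPM treated, a log2 fold change of 9.88 (SE 0.60, edgeR adjusted p = 3.75e-06). GBP5 had 0, 0, 0.0822, 0.0337 and 0 CPM untreated and 636, 458, 975, 1002 and 1017 CPM treated, so a gene read at or near 0 reached at least 458 CPM in every clone. The summed CPM of the family was 1.98 to 13.5 untreated, lowest in KOC5, and 2183 to 2902 treated. GBP6 was at 0 in all untreated libraries and at 1.25 to 3.92 CPM in the treated ones. The treated mean lay 40.4-fold above the mean floor of 3 counts per library. GBP3 was the member with the smallest rise (3.01), from 1.44 to 7.42 CPM to 34.2 to 52.7 CPM. The family lies on chromosome 1 of GRCh38 in one run of called genes from 88921044 to 89424934, where 10 of 11 tested genes were called higher, KYAT3 (log2 fold change 1.06) and GBP1P1 included. The run was bounded by called genes, so this share is high by construction. KYAT3 and GBP3 overlap, and the strand setting of the counting was not stated.

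Called genes of both directions had a neighbour called the same way more often than all tested genes did. Of the 329 genes called higher, 105 (31.9%) had another gene called higher within 100 kb, where 6.05% of all tested genes had one. For the genes called lower the share was 8.0%, which is 4 genes, against 1.04% of all tested genes. The runs named here were drawn by joining called genes, and each ends at a called gene. The share of tested genes called inside a run is thus high by construction and is not a result. On chromosome 6, TAP2, PSMB8, PSMB8-AS1, TAP1 and PSMB9 from 32821831 to 32859851 were all called (5 of 5 tested). On chromosome 4, CXCL9, ART3, CXCL10 and CXCL11 lie from 76001275 to 76112786 (4 of 4). On chromosome 22, APOL3, APOL4, APOL2 and APOL1 lie from 36140323 to 36267525 (4 of 4), and on chromosome 11, CASP4LP, CASP4, CASP1 and CARD16 lie from 104901549 to 105045335 (4 of 4). Overlapping and antisense genes in these runs, such as ART3 with the chemokines and PSMB8-AS1 with PSMB8, can share reads, so their own rises are uncertain.

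**Figure D1:**
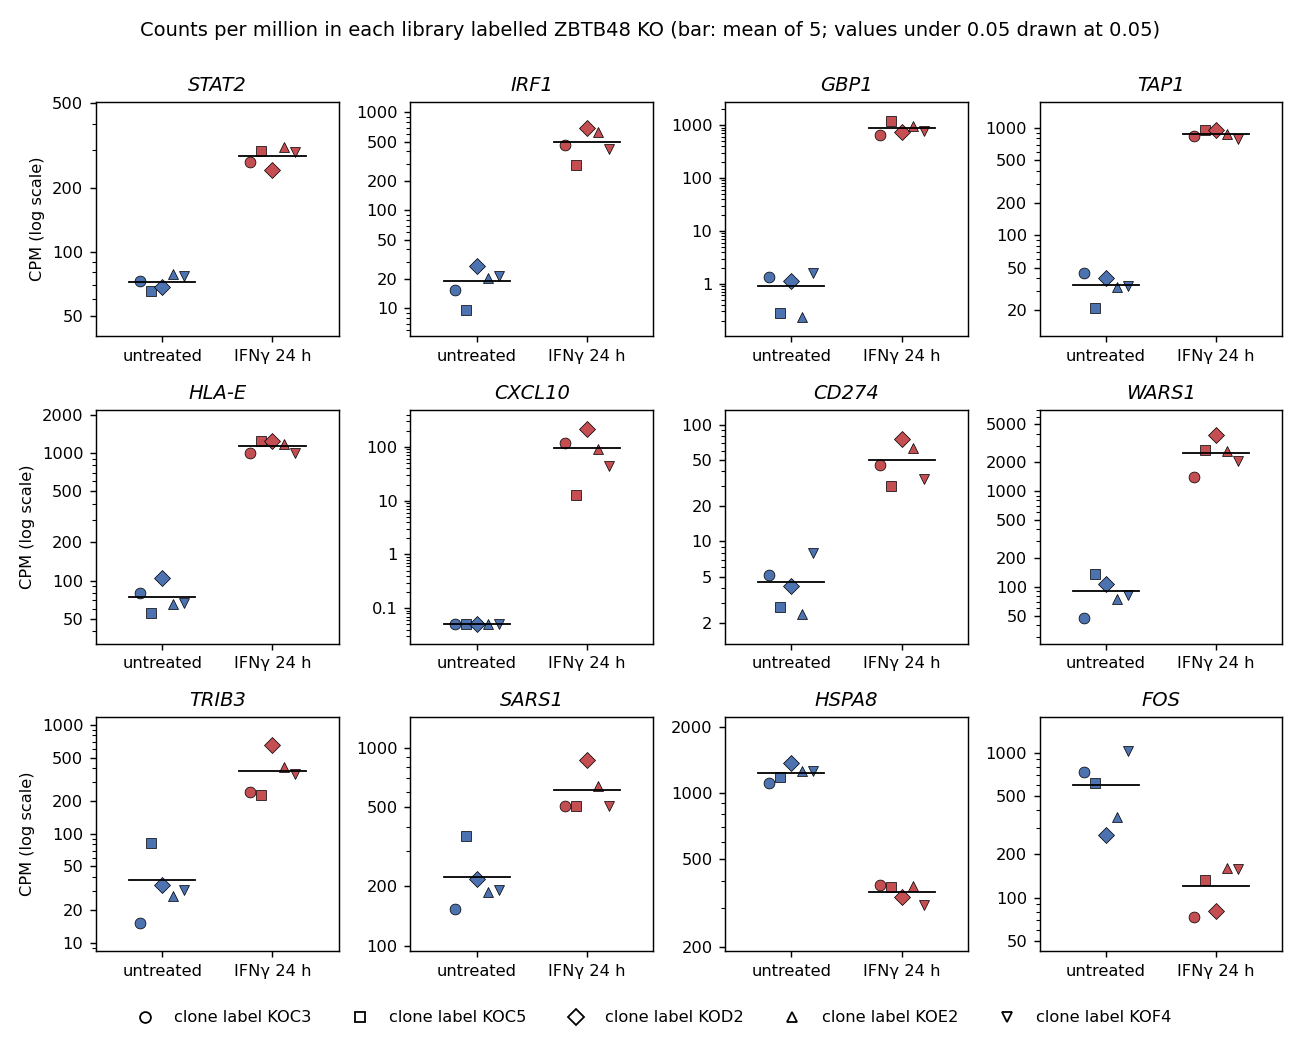
Level in CPM (log axis) of 12 genes in the 5 untreated and the 5 treated libraries labelled KO; each point is 1 library, its shape gives the clone label, the bar is the mean, and values under 0.05 are drawn at 0.05. The first 10 genes rise and HSPA8 and FOS fall with no overlap between the groups, and untreated KOC5 lies apart as the highest library for TRIB3 and SARS1.

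Peptide supply to MHC class I was called in 12 of 15 tested members (7 to 12 with 1 clone left out, fewest without KOF4), with a list median of 2.11. TAP1, a subunit of the transporter that brings peptides into the endoplasmic reticulum, had 44.6, 20.9, 39.8, 33.3 and 33.8 CPM untreated and 838, 967, 952, 883 and 793 CPM treated. Its log2 fold change was 4.68 (SE 0.20, edgeR adjusted p = 3.2e-07), and the treated clones were close together. PSMB9, a catalytic subunit of the immunoproteasome, had 22.2, 0.627, 15.9, 11.6 and 11.4 CPM untreated and 438, 462, 473, 449 and 397 CPM treated. Untreated KOC5 stood far below the other clones, while after IFNγ the 5 libraries lay within 397 to 473 CPM. The other 2 immunoproteasome subunits, PSMB10 and PSMB8, rose by 3.72 and 2.95 on the log2 scale. The general chaperones of the pathway did not pass: CALR lay lower in every treated library (-0.50, edgeR adjusted p = 0.0212), CANX was at 0.01 and PDIA3 at 0.27. Of 22 subunits of the constitutive proteasome, 0 were called by edgeR or DESeq2, with 7 under an unadjusted p of 0.05 (list median 0.04). PSMA4 lay higher in every treated library (0.87, under 2-fold, edgeR adjusted p = 0.0033).

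The MHC class I chains followed. HLA-E, the non-classical chain that NK cells read, rose most, from 79.8, 56.1, 104, 65.6 and 66.5 CPM to 1005, 1239, 1251, 1186 and 1007 CPM (log2 fold change 3.93, SE 0.18, edgeR adjusted p = 4.51e-07). B2M, the light chain of all class I molecules, stood at 258, 204, 548, 523 and 546 CPM untreated and at 1191, 1466, 2414, 2729 and 2412 CPM treated (log2 fold change 2.30, edgeR adjusted p = 0.00247). In B2M, KOC3 and KOC5 were low in both conditions, and the groups did not overlap. HLA-F rose by 3.33, HLA-B by 2.17 and HLA-C by 1.98 on the log2 scale; these paralogs can share reads, so the split among them is uncertain. In all, 6 of 12 tested members of the list were called (median 1.28), and 3 to 6 were called with 1 clone left out, 3 of them without KOD2, KOE2 or KOF4. MICA, a stress ligand of NK cells, lay lower in every treated library (-0.65, edgeR adjusted p = 0.0324). Per kilobase of gene model, B2M was the most abundant called gene after IFNγ, with 1323 CPM per kb against 269 untreated. WARS1 followed with 814 against 28.8, HLA-C with 768 against 195.0, HLA-B with 656 against 145.9 and IFITM3 with 641 against 147.9.

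The MHC class II arm was uneven between clones. Of 18 tested chains, loading and assembly factors, 3 were called (list median 1.97), and 0 to 5 with 1 clone left out: 5 without KOC5, 1 without KOC3 or KOE2, and 0 without KOD2 or KOF4. With the block of 5 labels 6 were called, and with that of KOC3, KOC5 and KOD2 there were 2. The count also moved with the test: DESeq2 called 9, or 6 with shrunken changes. The edgeR fit of all 20 libraries called 6, and edgeR without the filter on low counts called 0. CIITA, the coactivator of the class II genes, had 1.31, 2.71, 1.94, 2.16 and 2.04 CPM untreated and 3.05, 6.12, 11.1, 18.8 and 7.45 CPM treated. All treated libraries lay above all untreated ones, and the change missed the cut-off (log2 fold change 2.19, SE 0.43, edgeR adjusted p = 0.0116, exact permutation p = 0.00794, the smallest that 5 against 5 libraries give). HLA-DRA, the alpha chain of HLA-DR, had 0.135, 0.0607, 0, 0.0337 and 0.119 CPM untreated and 5.57, 7.14, 46.8, 133 and 10.7 CPM treated (log2 fold change 9.19, SE 1.24, edgeR adjusted p = 0.00148). CD74, the invariant chain, had 0.347, 0.263, 0.296, 0.371 and 0.277 CPM untreated and 11.3, 4.91, 152, 442 and 20.96 CPM treated (log2 fold change 8.65, SE 1.38, edgeR adjusted p = 0.00379). In all 3 genes the treated library labelled KOE2 was highest and KOD2 next, and KOC3 and KOC5 were the lowest. CTSS, the cathepsin that trims the invariant chain, had another order, with 72.6, 4.56, 136, 18.6 and 21.7 CPM in the treated libraries (log2 fold change 6.48, edgeR adjusted p = 0.00596).

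HLA-DRB1 (5.84, edgeR adjusted p = 0.015), HLA-DPA1 (3.08, 0.0417) and HLA-DMB (2.95, 0.0632) lay higher in every treated library and were not called; the first value in each bracket is the log2 fold change and the second the edgeR adjusted p. HLA-DQB1 overlapped between the groups, with 2.38, 0.223, 1.65, 2.29 and 3.96 CPM untreated and 2.04, 0.833, 3.25, 8.98 and 2.36 CPM treated. The assembly factors RFX5 (0.40) and NFYC (0.34) did not pass. In the WT clones 13 of 21 tested members of the list were called. In the WT clones CIITA had a log2 fold change of 4.66, CD74 of 11.63, HLA-DMB of 6.86, HLA-DQB1 of 3.83 and HLA-DRB1 of 9.94. Tested as a difference between the responses over 20 libraries with edgeR, CIITA reached an unadjusted p of 0.000197, HLA-DMB of 0.000944, HLA-DQB1 of 0.00205, HLA-DRB1 of 0.017, HLA-DPA1 of 0.02 and CD74 of 0.0432. The adjusted p over all genes was 1.0 for each, and this test was conservative here, as the comparison across all genes below shows.

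**Figure D2:**
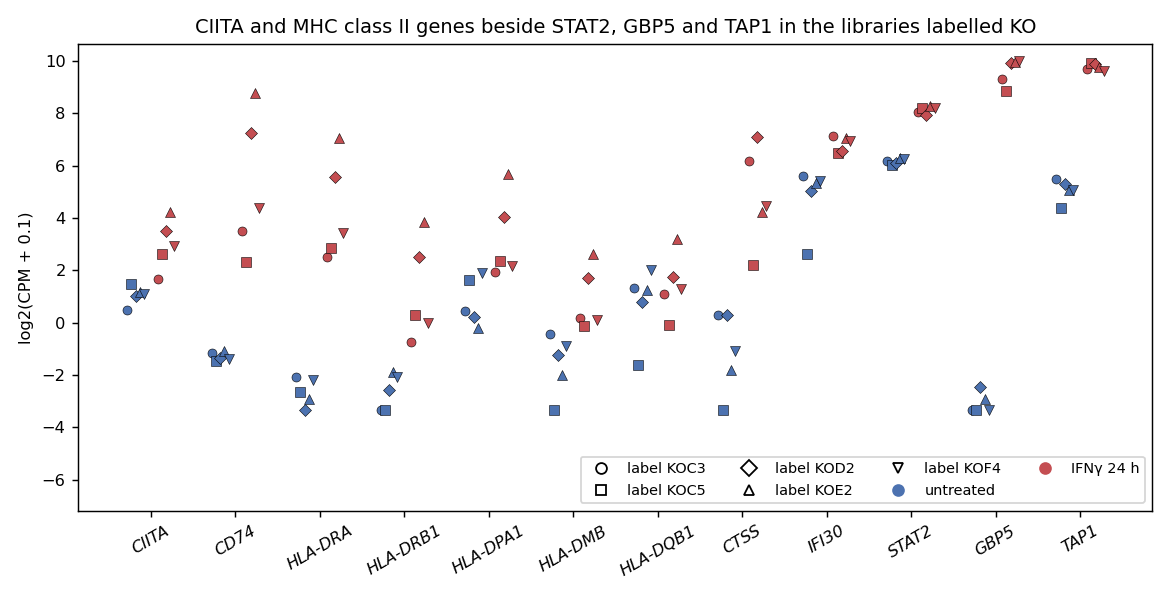
Level as log2(CPM + 0.1) of CIITA, MHC class II genes and, for contrast, STAT2, GBP5 and TAP1 in the 5 untreated (blue) and 5 treated (red) libraries labelled KO; each point is 1 library and its shape gives the clone label. CIITA spreads from 3.05 to 18.8 CPM and CD74 from 4.91 to 442 CPM among the treated libraries, whereas those of STAT2 and TAP1 lie close together.

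Across all genes the response of the KO clones and that of the WT clones were also compared. The WT clones had 485 genes called higher (2.48% of 19522 tested) and 100 called lower (0.512%). Of the 329 genes called higher in KO clones, 326 were tested in WT clones, all 326 with the same sign, 309 above 2-fold and 272 called. Their median log2 fold change was 2.22 in KO and 2.17 in WT clones, and their choice by the KO call favours the KO value. Of the 50 called lower, all 50 had the same sign in WT clones, 38 fell more than 2-fold and 24 were called. The 2 comparisons share no library. A test of the difference between the responses called 0 of 21052 genes (0.0%), with 86 genes under an unadjusted p of 0.05 by edgeR and 115 by DESeq2, which called 0 as well. With the clone as a replicate block it also called 0, with 317 genes under 0.05. All these counts lie far under the share of 0.05 of the genes that chance alone would put there. The test was thus conservative, and its 0 calls do not show that the responses are equal. A further 213 genes were called higher in WT clones alone, with a median of 1.882 in WT clones and of 1.526 in KO clones where tested. Choice by a call in WT clones alone favours the WT value, so these medians are not read as a difference of the responses. Some of the 213 genes failed the filter on low counts in KO clones and have no sign there. The 196 that were tested in KO clones all had the same sign, 170 of them above 2-fold. BST2 was among them: it had 0.753, 0.0809, 17.9, 8.53 and 88.6 CPM untreated and 121, 164, 142, 289.8 and 262 CPM treated in the libraries labelled KO, and it was not called (log2 fold change 3.08, edgeR adjusted p = 0.147).

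**Figure D3:**
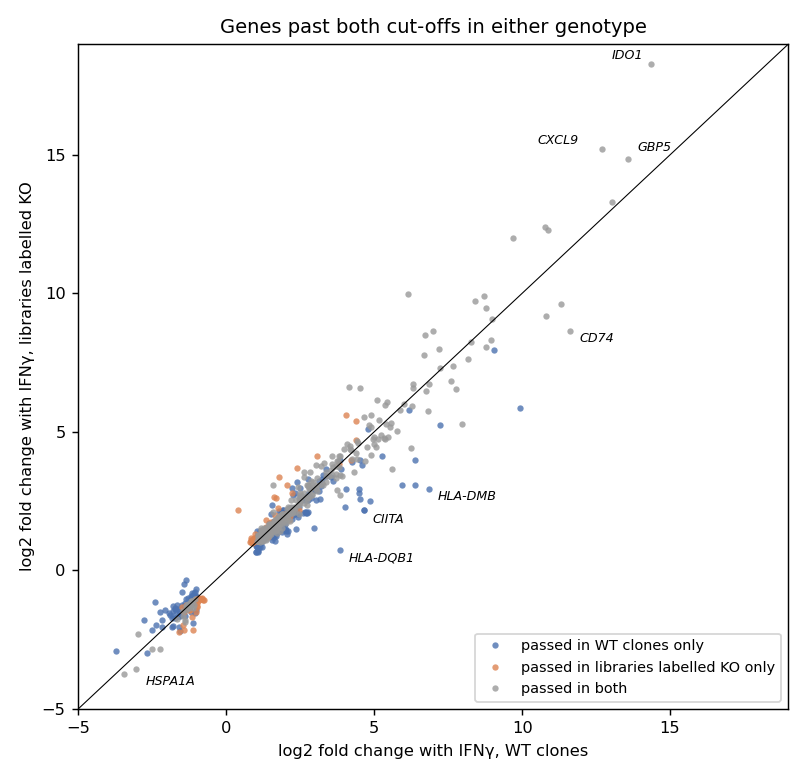
Log2 fold change after IFNγ in the KO clones (y axis) against that in the WT clones (x axis) for the 646 genes called in either and tested in both; colours mark the 296 called in both, the 270 called in WT clones only and the 80 called in KO clones only. The points lie along the diagonal, and CIITA and several MHC class II genes lie on its WT side.

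Chemokines were called in 4 of 17 tested members (3 to 5 with 1 clone left out, list median 1.32). CXCL9, which draws T cells through CXCR3, was at 0 in all untreated libraries and at 75.01, 55.5, 115, 91.5 and 76.7 CPM in the treated ones (edgeR adjusted p = 5.31e-06). Its treated mean lay 1488-fold above the mean floor of 3 counts per library. CXCL10, a second ligand of that receptor, was at 0 in 4 untreated libraries and 0.0396 CPM in KOF4, and at 118, 12.8, 218, 91.1 and 44.2 CPM after IFNγ, with KOC5 lowest by far. CXCL11, the remaining CXCR3 ligand, rose from at most 0.0658 CPM to 60.4, 96.7, 187, 105 and 116 CPM. CXCL16, by contrast, started from 11.3 to 20.7 CPM and rose by 1.46 on the log2 scale. CXCL8, a neutrophil chemokine, overlapped between the groups, at 2.12, 0.526, 3.17, 3.52 and 3.26 CPM untreated and 16.3, 0.716, 26.4, 16.4 and 22.6 CPM treated (edgeR adjusted p = 0.0504). Fitted fold changes of genes at 0 depend on the prior count and give no bound. Fewer responding cells and less RNA per cell cannot be told apart in these bulk libraries.

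Cytokines and their receptors were called in 7 of 37 tested members (3 to 9 with 1 clone left out, 3 without any clone but KOC5, 12 with the block of 5 labels; list median 0.74). TNFSF13B, the B cell factor BAFF, had at most 0.0607 CPM untreated and 17.1, 13.5, 16.3, 31.3 and 40.6 CPM treated. Its treated mean lay 427.5-fold above the mean floor. IL15RA, which presents interleukin 15, had 1.45, 0, 1.299, 0.287 and 0.218 CPM untreated and 38.6, 14.9, 48.9, 41.1 and 32.7 CPM treated. IL12RB1 rose by 8.06, IL18BP, a decoy that binds interleukin 18, by 4.01, IL7 by 2.03, IL6 by 2.02 and CSF1 by 1.77 on the log2 scale. Untreated KOC5 was the lowest library in CSF1, at 11.2 CPM against 30.8 to 36.0 in the others. The transducing receptor IL6ST, at 162 to 299 CPM untreated, did not pass (0.53, edgeR adjusted p = 0.234).

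Enzymes of tryptophan use were read next. IDO1, on chromosome 8, degrades tryptophan: it was at 0 in all 5 untreated libraries and at 851, 609.8, 639, 709.9 and 665 CPM in the treated ones (edgeR adjusted p = 2.86e-07). Its treated mean lay 12500-fold above the mean floor. WARS1, which charges tRNA with tryptophan, stood at 47.4, 136, 108, 75.02 and 81.8 CPM untreated and at 1417, 2708, 3836, 2637 and 2075 CPM treated (log2 fold change 4.82, SE 0.35, edgeR adjusted p = 1.53e-05). KMO, the next enzyme of the kynurenine pathway to be called, rose by 3.22 from at most 0.425 CPM. SLC3A2, a subunit of the large neutral amino acid transporter, went from 242, 449.5, 231, 225 and 225 CPM to 778, 744, 910.5, 674 and 636 CPM. Its partner SLC7A5 missed the cut-off (1.10, edgeR adjusted p = 0.0363), with untreated KOC5 at 1091 CPM inside the treated range. In all, 4 of 12 tested members were called (2 to 5 with 1 clone left out, 2 without any clone but KOC5; list median 0.46). WARS2, the mitochondrial enzyme, did not pass (0.17, edgeR adjusted p = 0.69).

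Antiviral genes of the IFIT, IFITM, OAS and MX group were called in 19 of 36 tested members (11 to 21 with 1 clone left out, list median 2.13). OAS2, a sensor enzyme that activates RNase L, had 0.2896, 0, 0.247, 0.185 and 0.594 CPM untreated and 43.3, 20.02, 63.3, 77.5 and 81.8 CPM treated (log2 fold change 7.76, edgeR adjusted p = 6.49e-05). IFITM1, a membrane protein that hinders viral entry, had 0.174, 0.162, 0.2796, 0.287 and 0.969 CPM untreated and 38.9, 73.8, 82.8, 89.03 and 87.7 CPM treated, with KOC3 lowest after IFNγ. IFI27 spread widely among treated clones, at 8.503, 34.3, 41.6, 106 and 36.1 CPM. IFI35 rose by 6.55. ADAR and EIF2AK2 lay higher in every treated library by less than 2-fold (0.94 and 0.84). Nucleic acid sensors were called in 5 of 17 (1 to 7 with 1 clone left out, 1 without KOC3 or KOE2; list median 0.39): the RNA sensors DHX58 (3.40), IFIH1 (2.93) and DDX58 (1.69), their activator TRIM25 (1.42) and the DNA sensor IFI16 (1.19), values being log2 fold changes. The adaptor MAVS and the kinase TBK1 did not pass. AIM2, a DNA sensor, failed the filter on low counts for this comparison, with 0, 0.121, 0.0164, 0.0169 and 0.119 CPM untreated and 4.15, 0.161, 13.1, 8.11 and 10.5 CPM treated, KOC5 remaining near its untreated level.

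Genes for conjugation of the ubiquitin-like ISG15 were called at several steps, with 6 of the 9 listed genes tested. ISG15 had 11.97, 2.21, 12.8, 14.9 and 12.6 CPM untreated and 98.2, 74.6, 148, 145 and 169.8 CPM treated. UBA7, its activating enzyme, rose by 4.76, UBE2L6, its conjugating enzyme, by 3.94, the ligase-like HERC6 by 2.25 and USP18, which removes ISG15, by 2.03 on the log2 scale. These were 5 of 6 tested (list median 2.9; 5 without KOC5, and 3, 2, 1 and 2 without KOC3, KOD2, KOE2 and KOF4). The remaining member, UBA6, lay higher in every treated library (0.72, edgeR adjusted p = 0.0145). The apolipoprotein L genes, several of which lyse or restrict parasites and bacteria, were called in 5 of 5 (4 to 5 with 1 clone left out, list median 5.19). APOL3 had 0.676, 0.526, 2.02, 0.421 and 0.8903 CPM untreated and 76.2, 229, 125, 156 and 139 CPM treated. APOL1, the trypanosome lytic factor, had 27.97, 0.223, 33.7, 8.08 and 12.7 CPM untreated and 334, 498, 485, 502 and 486 CPM treated (log2 fold change 4.8, SE 0.86, edgeR adjusted p = 0.00733), so untreated KOC5 was lowest and treated KOC3 was lowest. APOL4 rose by 6.08, APOL6 by 5.19 and APOL2 by 2.81. APOBEC3 deaminases gave 0 calls by edgeR and by DESeq2 in 6 tested, with 3 under an unadjusted p of 0.05 and 1 called with the block of 5 labels (list median 0.48); APOBEC3C lay at -0.85 (edgeR adjusted p = 0.0472).

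PARP and DTX proteins, which add or read ADP-ribose, were called in 5 of 18 (3 to 7 with 1 clone left out, list median 0.38). PARP14 rose by 3.08, from 34.99 to 81.2 CPM to 438 to 619 CPM, and DTX3L and its partner PARP9 by 2.65 and 2.55 on the log2 scale. PARP12 and PARP3 completed the calls (1.90 and 1.6), and PARP1, the DNA damage enzyme, was at -0.34 (edgeR adjusted p = 0.0854). In the TRIM ligases, TRIM22, TRIM21 and TRIM14 were the 3 calls among 23 (2 to 3 with 1 clone left out, list median 0.14), with log2 fold changes of 2.35, 1.61 and 1.04. PML body genes gave 2 calls in 9 (1 to 2, list median 0.76), SP110 and SP100 (1.83). Complement genes gave 4 calls in 18 (2 to 4, 8 with the replicate block, list median 1.34), among them the protease C1S with 4.69, 0.627, 8.54, 4.82 and 11.6 CPM untreated and 72.2, 26.4, 148, 304 and 85.3 CPM treated, CFB (3.68) and the inhibitor SERPING1 (1.94).

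Surface ligands that T cells read were called in 7 of 18 tested members (3 to 9 with 1 clone left out, 3 without any clone but KOC5; list median 1.23). CD274, which encodes the checkpoint ligand PD-L1, had 5.17, 2.73, 4.18, 2.38 and 8.03 CPM untreated and 45.2, 29.9, 75.6, 63.3 and 34.3 CPM treated (log2 fold change 3.46, SE 0.39, edgeR adjusted p = 0.000393). PDCD1LG2, its paralog PD-L2 next to it on chromosome 9, had 0.5405, 1.23, 3.24, 0.961 and 1.25 CPM untreated and 22.1, 27.4, 54.6, 29.7 and 27.6 CPM treated. LGALS9, a galectin, rose by 5.33, the butyrophilins BTN3A3 and BTN3A1, which gamma delta T cells sense, by 2.73 and 2.24, the phagocytosis inhibitor CD47 by 1.42 and the costimulatory receptor CD40 by 1.05. One member fell: TNFSF9, the ligand of 4-1BB, went from 21.2, 19.2, 20.4, 16.1 and 18.9 CPM to 8.53, 9.39, 9.28, 11.5 and 8.203 CPM (log2 fold change -1.03, edgeR adjusted p = 0.00158). Of 21 adhesion molecules 2 were called, CEACAM1 (5.79) and LGALS3BP (1.28), and the list median was -0.04. With any 1 clone left out, 1 was called. CEACAM1 reached 19.7, 3.59, 20.1, 23.4 and 19.7 CPM in the treated libraries, lowest in KOC5.

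Cell death and inflammasome genes were called in 6 of 33 tested members (2 to 8 with 1 clone left out, 2 without KOE2; list median 0.53). XAF1, an antagonist of the inhibitor of apoptosis XIAP, was at 0 in 4 untreated libraries and at 0.0329 CPM in KOD2, and at 22.2, 33.3, 58.9, 67.5 and 73.1 CPM after IFNγ. Its treated mean lay 918-fold above the mean floor. The inflammatory caspases CASP1 and CASP4 rose by 5.26 and 2.08, their regulator CARD16 by 4.54, the BH3-only gene PMAIP1 by 1.52 and the kinase RIPK2 by 1.30 on the log2 scale. CASP8 and GSDMD were not called. NF-κB subunits and feedback genes gave 0 edgeR and 0 DESeq2 calls in 17, with 5 under an unadjusted p of 0.05 (list median 0.66, WT clones 3 calls). With the replicate block 2 were called higher, over all 5 labels and over KOC3, KOC5 and KOD2 alike. NFKB2 had 86.2, 47.8, 121, 59.4 and 76.7 CPM untreated and 199, 47.6, 316, 95.2 and 64.9 CPM treated, so the groups overlapped. Lysosomal genes gave 3 calls in 27 (0 to 2 with 1 clone left out, list median -0.16), the cathepsins CTSS and CTSO (1.89) and the protease LGMN (1.24), while PSAP, CTSB and LAMP1 did not pass. GCH1, which makes the cofactor of nitric oxide synthases, was the single call among 27 genes of iron, redox and nitric oxide (2.80, list median -0.15).

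**Figure D4:**
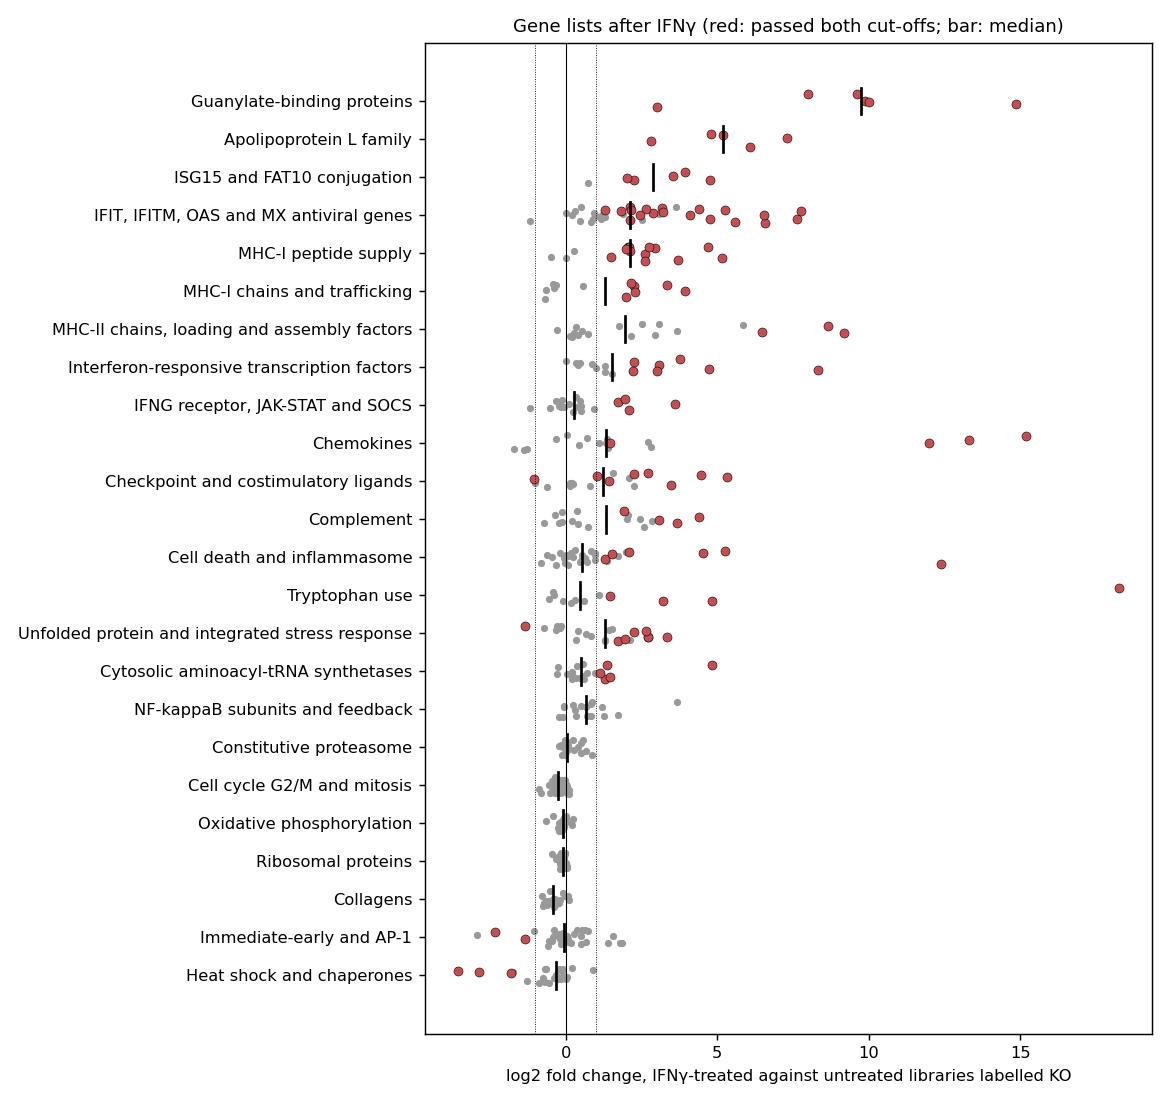
Log2 fold change after IFNγ in libraries labelled KO (x axis) for each tested member of the gene lists (y axis); red points passed both cut-offs, grey points did not, and the bar is the list median. The guanylate-binding proteins (median 9.75) and the APOL family (5.19) lie furthest to the right, and the ribosomal and oxidative phosphorylation lists have medians of -0.09 and -0.1.

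Genes of the stress responses rose as well. The list of the unfolded protein and integrated stress responses had 7 of 22 tested members called higher and 1 lower (median 1.29). Its count moved with the clones, from 3 without KOD2, KOE2 or KOF4 and 5 without KOC3 to 12 without KOC5. With the block of 5 labels 11 were called higher, and 1 with that of KOC3, KOC5 and KOD2. TRIB3, a pseudokinase that restrains ATF4, had 15.04, 81.3, 33.8, 26.6 and 30.5 CPM untreated and 244, 228, 649, 413 and 349.6 CPM treated (log2 fold change 3.33, SE 0.46, edgeR adjusted p = 0.00175). DDIT4, an inhibitor of mTORC1, went from 39.2, 178, 37.1, 45.97 and 84.5 CPM to 354, 714, 416, 662 and 358 CPM. CHAC1, which degrades glutathione, went from 3.07, 28.6, 8.75, 9.56 and 11.6 CPM to 59.2, 98.1, 68.4, 99.3 and 74.8 CPM. In each of these, untreated KOC5 was the highest untreated library. SESN2 rose by 2.66, DDIT3 by 2.24, CEBPB by 1.97 and HERPUD1 by 1.72 on the log2 scale. ATF4, the factor at the centre of the integrated stress response, lay higher in every treated library and missed both cut-offs (0.84, edgeR adjusted p = 0.012). Among the chaperones of the endoplasmic reticulum, SDF2L1 fell from 67.7, 63.6, 80.4, 70.9 and 66.6 CPM to 32.4, 38.7, 17.7, 25.6 and 24.5 CPM (log2 fold change -1.33, edgeR adjusted p = 0.00194). HSPA5 was at -0.17 (edgeR adjusted p = 0.615) and HSP90B1 at -0.29 (0.079).

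Families of amino acid metabolism were then read whole; they were chosen after these values had been seen. Of 20 cytosolic aminoacyl-tRNA synthetases, which charge tRNAs for translation, 5 were called and 18 lay above 0 (list median 0.52, 1 to 6 called with 1 clone left out, 6 without KOC5). Besides WARS1 they were SARS1, with 154, 360.2, 218, 188 and 191 CPM untreated and 511, 506, 872, 644 and 509 CPM treated (1.45, edgeR adjusted p = 0.00494), GARS1 (1.37), CARS1 (1.30) and YARS1 (1.13). The 17 mitochondrial synthetases gave 0 calls by edgeR and by DESeq2, 7 under an unadjusted p of 0.05 and a median of -0.07. Of 15 enzymes of serine synthesis and folate one-carbon metabolism, 3 were called (median 0.42; 4 without KOC5 and 1 without any other clone): MTHFD2, with 212, 569, 262, 225 and 253 CPM untreated and 949, 1049, 1263, 1114 and 913 CPM treated, PSPH (1.58) and SHMT2 (1.18). Amino acid transporters gave 5 calls higher and 1 lower among 29 (median 0.26), 9 and 1 without KOC5 and 0 without any other clone, and 8 and 0 with the block of 5 labels. SLC1A5, the glutamine carrier, had 244, 636, 273, 321 and 272 CPM untreated and 1039, 969, 1016, 990.4 and 962 CPM treated, and SLC6A9 (1.73), SLC7A1 (1.29) and SLC38A1 (1.15) rose with SLC3A2. The taurine carrier SLC6A6 fell (-1.04, edgeR adjusted p = 0.00539). Of 25 factors in a list of the CEBP, ATF and CREB families and related genes, 6 were called (5 to 7, median 0.45). Among them were CEBPG (1.77), NFIL3 (1.77) and NFE2L2 (1.17). The largest change in this list, 8.33, was that of BATF2, also counted among the interferon-responsive factors above. Untreated KOC5 had a higher sum than every other untreated clone for the cytosolic synthetases, at 4996 against 3285 to 3887 CPM, and for the transporters, at 4147 against 2190 to 2430 CPM.

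CHAC1 is shown for the letters TGATGNAA, the core of the amino acid response element to which ATF4 with a CEBP partner is known to bind, in capitals and in reverse complement, 209 bases before the annotated start.
CHAC1, chr15:40953222-40953309, plus strand: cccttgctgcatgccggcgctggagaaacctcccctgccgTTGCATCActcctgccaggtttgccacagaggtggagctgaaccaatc
The letters stood in 1.85% of all 14232 windows. In the stress and amino acid lists they stood in 2 of 21 windows of genes called higher (9.52%) and in 6 of 65 windows of genes not called (9.23%).

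Heat-shock genes led the falls within the lists. HSPA1A, which encodes inducible HSP70, stood at 30.5, 37.7, 36.2, 34.1 and 45.6 CPM untreated and at 2.65, 4.21, 1.399, 4.51 and 2.91 CPM treated. HSPA1B, its copy, stood at 40.1, 36.1, 30.8, 33.9 and 35.5 CPM untreated and at 4.403, 5.71, 2.85, 6.18 and 5.18 CPM treated. HSPA1A fell by 3.55 on the log2 scale (edgeR adjusted p = 4.09e-05) and HSPA1B by 2.86 (edgeR adjusted p = 1.28e-05); the copies are nearly identical, so the split of reads between them is uncertain. HSPA8, the constitutive HSC70, went from 1111, 1191, 1372, 1256 and 1257 CPM to 383, 376, 338, 378 and 308 CPM, with clones close together in both conditions (log2 fold change -1.80, SE 0.10, edgeR adjusted p = 2.39e-06). These were 3 of 25 tested members of the heat-shock and chaperone list (median -0.32), and 3 to 4 fell with any clone left out, 4 without KOC5. The list was not uniform: HSP90AB1 (-0.24) and HSP90AA1 (-0.08) did not pass, and the mitochondrial HSPA9 lay at 0.89 (edgeR adjusted p = 0.0703). The promoter window of HSPA8 is shown for the heat shock element-like letters, taken as GAA, TTC and GAA with any 2 bases between them on either strand, of which the window held 2 matches, and the nearer one, 55 bases before the annotated start, is in capitals.
HSPA8, chr11:123062139-123062231, minus strand: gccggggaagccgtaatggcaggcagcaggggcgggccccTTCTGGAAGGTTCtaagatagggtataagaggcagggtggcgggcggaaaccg
These letters stood in 4 of 23 windows of the list (17.4%) and in 0.372% of all windows. Among genes called lower they stood in 1 of 42 windows (2.38%), that of HSPA8.

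FOS, an immediate-early subunit of AP-1, had 736, 616, 269.8, 362 and 1025 CPM untreated and 73.1, 131, 80.8, 161 and 158 CPM treated (log2 fold change -2.32, SE 0.38, edgeR adjusted p = 0.00419). KOD2 was the lowest and KOF4 the highest untreated library, and every treated library lay under every untreated one. FOSB, its paralog, had 284, 60.3, 40.9, 45.4 and 241 CPM untreated and 12.4, 10.9, 16.7, 16.2 and 32.6 CPM treated and missed the cut-off (-2.92, edgeR adjusted p = 0.0158). BTG2, an antiproliferative gene that p53 induces, fell by 1.36 on the log2 scale (edgeR adjusted p = 0.00733). FOS and BTG2 were the 2 calls among 33 immediate-early genes (0 to 1 with 1 clone left out, list median -0.05), and EGR1 (-0.38), JUN (0.08) and CCN1 (0.38) did not pass. The p53 targets had 3 called higher, SESN2, GADD45A (1.59) and PMAIP1, and BTG2 lower among 23 (list median -0.14; 1 to 4 and 0 to 3 with 1 clone left out); CDKN1A (-0.14) and MDM2 (-0.21) were not called.

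Outside the lists, and leaving aside LOC symbols, the largest falls were those of CD180, DEPP1, ABCG4, KRT75 and FAM43B. CD180, a Toll-like receptor relative known from B cells, had 3.38, 10.7, 4.24, 6.68 and 7.28 CPM untreated and 0.367, 1.11, 0.0378, 0.343 and 0.535 CPM treated (log2 fold change -3.74, SE 0.65, edgeR adjusted p = 0.00606). DEPP1, a target of FOXO factors, had 18.1, 21.2, 31.7, 20.4 and 18.9 CPM untreated and 3.797, 8.82, 3.18, 4.52 and 4.31 CPM treated (log2 fold change -2.16, edgeR adjusted p = 0.00136). ABCG4, a sterol transporter, lay at -2.15, the keratin KRT75 at -1.99 and FAM43B at -1.86. All were lower in every treated library. There were also 2 uncharacterized transcripts among the 10 largest falls, LOC105379242 (-2.83) and LOC107985362 (-2.23). By the fitted change, the largest rises on the same terms were LGALS17A, a galectin pseudogene with 47.8, 68.2, 63.8, 22.3 and 38.9 CPM after IFNγ, USP30-AS1, CCL25, CD5L and PLAAT4. USP30-AS1 is antisense to another gene and may share its reads. PLAAT4, a growth-inhibiting phospholipase, went from 0.328, 0, 0.5099, 0.287 and 0.554 CPM to 109, 109, 67.3, 95.6 and 129.7 CPM (log2 fold change 8.22, edgeR adjusted p = 1.09e-05).

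Of 36 genes of the G1/S phase and replication, 33 of G2/M, 19 collagens, 38 matrix and TGF-beta target genes, 15 of the osteoblast lineage, 28 of cholesterol synthesis, 30 of glycolysis and hypoxia, 29 of oxidative phosphorylation and 38 ribosomal proteins, edgeR called 0 in each. Of these genes 9, 8, 2, 10, 3, 8, 5, 3 and 3, in that order, had an unadjusted p under 0.05, and DESeq2 called 1 matrix gene higher and 2 lower, and 2 genes of the glycolysis list higher and 1 lower. With the block of 5 labels 2 matrix genes were called lower and 2 of the glycolysis list higher. The list medians lay between -0.43 for the collagens and 0.1 for glycolysis, against -0.032 over all genes. COL1A1 shows how far the clones differed, with 605, 4836, 1238, 538 and 1529 CPM untreated and 357, 2962, 649, 1003 and 285 CPM treated (-0.74, edgeR adjusted p = 0.609). SPARC lay at -0.82 and CCND1 at 0.61, and neither was called. GAPDH (-0.06) and RPLP0 (-0.09) were near 0.

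The height reached after IFNγ differed between clones to unequal degrees among the induced genes. The ratio of the highest to the lowest treated library had a median of 2.02 over the 329 genes called higher and of 2.0 over all genes tested. It was under 2 in 160 of them and over 10 in 8: C1S, IFI27, SLAMF8, CXCL10, HLA-DRA, CTSS, PLA1A and CD74, the last with a ratio of 90.1. PLA1A, a phospholipase, had 0.207, 0.248, 2.098, 2.04 and 9.47 CPM and SLAMF8, a receptor of myeloid cells, 1.21, 0.672, 10.8, 4.87 and 2.599 CPM in the treated libraries. The treated library labelled KOD2 was the highest in 132 of the 329 genes and that labelled KOC5 the lowest in 132. The same counts were not taken over all genes tested, so they are not read as a trait of the induced genes. KOD2 is also the label whose ZBTB48 level lay above the untreated WT range. Its MTFP1 level was 0.9375 CPM untreated and 0.2836 CPM treated, under the WT range of 27.19 to 53.04 CPM untreated and 32.79 to 47.67 CPM treated. Whether the ZBTB48 level of KOD2 bears on the rises was not tested. Without KOD2, 158 of the 379 called genes kept their call. All called genes that were tested kept their direction without any clone. Their selection fixes that outcome: their treated and untreated libraries do not overlap, so leaving out libraries cannot turn it.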

How the data were processed

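Stranded poly(A) libraries were made from 5 U2OS WT and 5 ZBTB48 KO clones, untreated or given 250 U/ml IFNγ for 24 h, and read from both ends. The authors aligned reads to GRCh38 with STAR 2.7.9a and deposited raw counts per gene from featureCounts 2.4.0 for 43366 RefSeq genes; uniquely mapped reads were used, which lowers the counts of near-identical genes, and the strand setting of the counting is not given in the sources used here. No value was normalized before deposit. Their own test used DESeq2 1.40.1.

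From these counts, genes were filtered with filterByExpr and tested with edgeR 4.0.16 (TMM, robust quasi-likelihood fit, R 4.3.3) over the 10 libraries labelled KO. A gene was called at an adjusted p under 0.01 and more than 2-fold. The difference of responses was the interaction over all 20 libraries. DESeq2 1.42.0, other normalizations, filters and cut-offs, and fits without each library or clone were the alternatives. The scripts were tested on simulated data. For single genes, an exact two-sided permutation test of log2(CPM + 0.1) over 252 arrangements was used. Total counts per library were 46652288 to 72952859. The floor is 3 counts per library and covers counting error only. A fold over the floor sets the mean of the treated libraries over the mean floor of the untreated ones, so single libraries can lie under it. Replicate libraries all differed by more than sampling noise.

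Labels name the same clone in both conditions. The check of the pairing (Pearson's r over 15118 genes, log2(CPM + 0.5), mean over 1 CPM) gave r of 0.774, 0.84 and 0.688 for KOC3, KOC5 and KOD2, and 0.018 and 0.092 for KOE2 and KOF4, so the comparison was left unpaired.

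The members and the 42 gene lists were chosen with earlier results of these data known. A further 5 families, the promoter and neighbour searches and several members named beside their lists (among them SOCS3, IRF9, NMI, HLA-B, IL6, IL7, CSF1, CD47, CD40, FOSB, DDIT3, CEBPB, SARS1, CASP8, KYAT3, AIM2, PLA1A, SLAMF8 and IGFBP4) were chosen after their values were seen. Other named genes followed a rule: fixed anchors, the 10 largest called changes in each direction, the 5 most abundant called genes, up to 4 called and 3 uncalled members of each list, and the 5 largest called changes outside the lists. A few members that the rule names are not reported here.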

Additional observations from a re-analysis of the deposited data

Results flagged for a closer look

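Among 326 groups of 5 libraries examined for the named genes, 36 had a highest or lowest library set apart by a gap over 0.71 of the group's range (Dixon's 95% critical value). Chance sets apart about 1 in 20 groups, but no chance count holds for these, since some genes were named after their values were seen, groups with a few reads in 1 library and 0 in the others meet the rule by construction, and the same libraries recur. These values were set apart by that rule, and no explanation of them was tested.

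Untreated KOC5 was the lowest library in 15 of them. It had 1.44 CPM for GBP3, 17.1 for PSMB8, 0.627 for PSMB9, 6.01 for IFI30, 11.2 for CSF1, 1.31 for IFIH1, 11.1 for UBE2L6, 2.21 for ISG15, 2.39 for APOL6, 25.6 for DTX3L, 13.9 for PARP9, 12.9 for SP100, 1.56 for BTN3A1, 0 for PLAAT4 and 10.5 for KRT75. All were called higher after IFNγ except KRT75, which was called lower, and IFI30, which was not called (edgeR adjusted p = 0.0282). It was the highest in 7, with 449.5 CPM for SLC3A2, 1091 for SLC7A5, 635.8 for GARS1, 290.8 for AARS1, 569.2 for MTHFD2, 97.1 for PSPH and 635.5 for SLC1A5; MTHFD2 is a folate one-carbon enzyme and the others serve amino acid transport, charging or synthesis.

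Untreated KOF4 was highest for CXCL10 (0.0396 CPM), IFITM1 (0.969 CPM) and IGFBP4 (98.3 CPM), and the treated library labelled KOE2 was highest for IGFBP4 (142.7 CPM). Treated KOC3 was lowest for IFITM1 (38.9 CPM), APOL1 (333.9 CPM) and APOL6 (392.0 CPM). Treated KOC5 was lowest for CD47 (80.2 CPM), CEACAM1 (3.59 CPM) and AIM2 (0.161 CPM). Untreated KOD2 was highest for XAF1 (0.0329 CPM) and DEPP1 (31.7 CPM), untreated KOE2 for LGALS17A (0.0337 CPM) and untreated KOC3 for CCL25 (0.0965 CPM). The values under 0.1 CPM are a few reads.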

How the results depend on the processing

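Where edgeR called 329 genes higher and 50 lower, the totals were 614 and 211 with DESeq2, 494 and 122 with shrunken DESeq2 changes, 519 and 123 with all 20 libraries fitted together, 112 and 3 with glmTreat against 2-fold, 561 and 184 at an adjusted p under 0.05, and 409 and 97 with no fold cut-off. With 1 library or clone left out, 123 to 403 were called higher and 5 to 87 lower. With the 5 clone labels as a replicate block there were 526 and 195, and with the block over clones 1 to 3 there were 239 and 67, against 21 and 1 for those clones unblocked, both with fewer libraries. In WT clones the block gave 867 and 547 in place of 485 and 100. The difference of responses called 0 in each of its alternatives, which does not show that the responses are equal. All tested reported calls kept their direction in every alternative. Their treated and untreated libraries do not overlap, so leaving out libraries could not reverse them. Of 143 named called genes under 24 alternatives, 2633 of 3432 values kept the call, 799 lost it and 0 reversed; 16 genes kept it in every alternative and 5 lost it in the block of 5 clones. With 1 library or clone left out, the log2 fold change of ZBTB48 ran from -0.466 (without treated KOD2, edgeR adjusted p = 0.76) to 1.12 (without untreated KOD2); the cause of these moves was not tested. Depth limits the genes with at most 3 counts in every untreated library, for which only the fold over that floor is a lower bound.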
